A study of Homo sapiens with 9 samples.

Results

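The vascular endothelial growth factor (VEGF) family was examined gene by gene in HAP1 cells that lack matrin 3 and in their wild-type counterparts: the ligands VEGFA, VEGFB, VEGFC and PGF, the receptor tyrosine kinases FLT1 (VEGFR1), KDR (VEGFR2) and FLT4 (VEGFR3), and the neuropilin co-receptors NRP1 and NRP2. The members were chosen by symbol, with the KO and WT values of these same libraries already known, so every KO to WT value of a member below is a description and carries no test. Of the 9 listed genes, 8 were among the 21003 gene rows of the count table, and all 8 passed the low-count filter that left 17777 genes for testing. KDR was not analysed here.

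VEGF ligands are secreted dimers that act on tyrosine kinase receptors, classically on endothelial cells. VEGFA binds FLT1 and KDR, VEGFB and placental growth factor (PGF) bind FLT1, and VEGFC, after proteolytic trimming, activates FLT4 and KDR and drives the growth of lymphatic vessels. The neuropilins have short cytoplasmic tails and no kinase activity; they serve both as VEGF co-receptors and as receptors for class 3 semaphorins, secreted guidance cues that signal through plexins.

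HAP1 is a near-haploid adherent human line derived from the chronic myeloid leukaemia line KBM-7, and matrin 3 (MATR3) is a nuclear matrix protein that binds RNA. The groups were MATR3 KO clone 1 (n = 2 libraries), MATR3 KO clone 5 (n = 2), wild-type clone 1 (n = 3) and wild-type clone 7 (n = 2), untreated beyond routine culture; both KO clones and both wild-type stocks were bought from a commercial supplier, the wild-type stocks as separate batches of the parental line. Ribosomal RNA was depleted from total RNA, so the libraries are not restricted to polyadenylated transcripts. No label says whether replicates came from separate cultures, so p-values below reflect how much these particular libraries vary, possibly for technical reasons only. Each genotype is thus represented by 2 clones or stocks. The wild-type stocks are called WT clones below for brevity. Their contrast compares batches of the parental line and need not measure how much single-cell clones vary.

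Total counts ran from 16103754 to 34407309 per library. MATR3 itself averaged 44.4 ± 3.58 CPM (counts scaled to a library total of 1000000) in KO libraries and 219 ± 5.83 CPM in WT libraries (SD, n = 4 and 5), with ranges of 40.8 to 49.3 in KO and 211 to 224 in WT; it was lower in every KO library than in any WT library. Across all tested genes, 23.2% differed between KO and WT at an adjusted p below 0.05 (edgeR), 11.3% higher in KO and 11.9% lower, and 35.8% had an unadjusted p below 0.05. This test counted libraries of the same clone as separate samples, so its p-values, and the SEs derived from it, overstate the replication. With each clone's counts summed, 1639 genes passed in place of 4123. WT clone 1 replicate 1 gave the lowest WT value for 5 of the 8 members and the highest for 1, and values without it are given where they bear on a result.

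HAP1 cells are not endothelial, and the markers that could be read were few. Of 16 endothelial markers, 3 (ESAM, SOX18 and EGFL7) could be read. They summed to 22.7 to 31.0 CPM across KO libraries and 17.2 to 26.0 CPM across WT libraries. PECAM1, CDH5, TEK, TIE1, VWF and ERG were not analysed here. The 3 lymphatic markers that could be read, of 6 listed, were the transcription factors PROX1 and FOXC2 and the membrane glycoprotein PDPN. Together they summed to 113 to 129 CPM in KO and 132 to 146 CPM in WT. Of 14 haematopoietic markers, 7 could be read, summing to 135 to 163 CPM in KO and 128 to 139 CPM in WT. PTPRC and SPI1 were not analysed here. EGFL7 was higher in KO (log2 difference 0.54, SE 0.15, edgeR adjusted p = 0.0228), as was PROX1 (0.52, SE 0.10, adjusted p = 0.00211), whereas PDPN was lower (-0.29, SE 0.06, adjusted p = 0.00322). The EGFL7 call was lost without KO clone 1 replicate 1 (adjusted p = 0.0576) or KO clone 5 replicate 2 (0.0780), and that of PDPN without KO clone 1 (0.0570). With each clone's counts summed, all 3 calls were lost (adjusted p = 0.0797 for EGFL7, 0.0584 for PROX1 and 0.0846 for PDPN). Whether these markers take part in the differences of the VEGF genes was not tested.

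In 4 of the 8 members, VEGFC, FLT1, FLT4 and NRP2, no KO library overlapped any WT library; over all tested genes 23.4% separated in this way, 11.5% with KO higher and 11.9% with KO lower. VEGFC, FLT1 and NRP2 were lower in KO and FLT4 was higher. VEGFA and VEGFB overlapped and lay close together, PGF overlapped with a higher KO mean, and NRP1 went opposite ways in the KO clones.

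**Figure D1:**
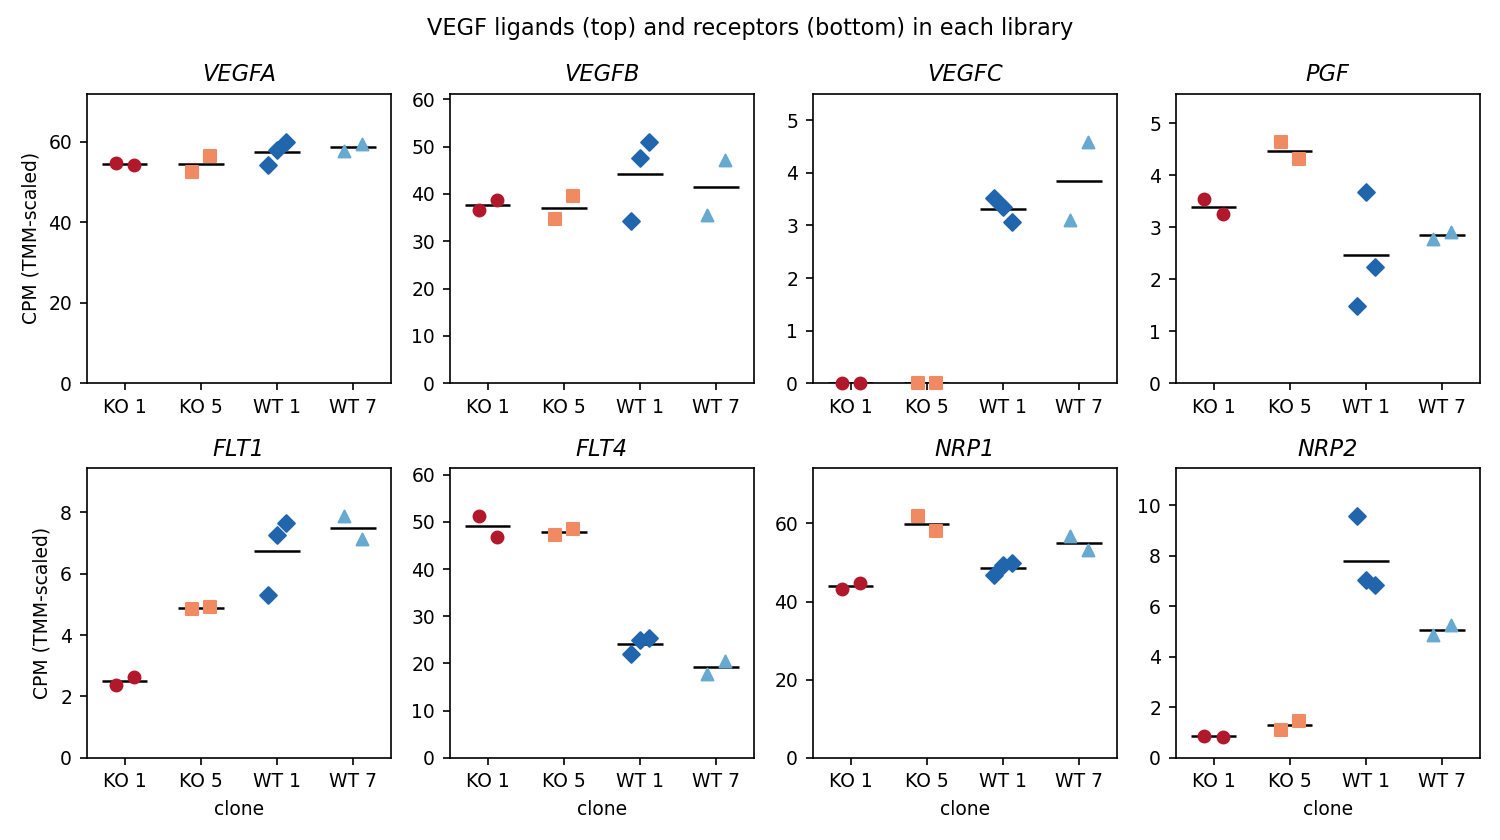
CPM (TMM-scaled) on the vertical axes for each of the 8 genes, ligands in the upper row and receptors in the lower, with KO clones 1 and 5 to the left of WT clones 1 and 7; each point is a library and each black line a clone mean. VEGFC is at 0 in every KO library, FLT4 lies at 46.9 to 51.2 CPM in KO against 17.7 to 25.4 CPM in WT, and NRP1 of KO clone 1 falls below every WT library and that of KO clone 5 above every WT library.

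VEGFC, the lymphangiogenic ligand of FLT4 (ENSG00000150630, hg38 chr4:176683538-176792922, minus strand), had no count in any KO library. The raw counts were 0, 0, 0 and 0 in KO libraries, against 57, 70 and 104 in WT clone 1 and 94 and 74 in WT clone 7. In CPM the WT libraries held 3.52, 3.35, 3.07, 3.11 and 4.59, a mean of 3.53 ± 0.622 (SD, n = 5). Every WT library thus held VEGFC at a similar low level, and at the WT mean the KO libraries would together have held 322 counts. Taking the limit that a count of 0 allows, 3 counts pooled over the KO libraries (0.0329 CPM), VEGFC was at least 107-fold lower in KO than in WT, a log2 difference of at most -6.75; without KO clone 1 replicate 2, the deepest KO library, the bound is 66.6-fold. The limit covers counting error only. VEGFC passed the low-count filter through its WT libraries alone, so it had to differ. Among the 17777 tested genes, 26 had 0 counts in all KO libraries, and 7 of these, VEGFC included, had a WT mean at or above that of VEGFC, out of 12578 genes at that level. In bulk RNA, fewer cells that express a gene and less RNA per cell cannot be told apart.

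The RefSeq promoter windows of the 3 members that were lower in KO without overlap are shown because these genes moved together; each is the 250 bases before the annotated start (GRCh38.p14), 5′ to 3′ on the gene's strand, with GC boxes (GGGCGG or its reverse complement CCGCCC) and the core of the hypoxia response element (ACGTG or GCGTG, or on the other strand CACGT or CACGC) in capitals. The VEGFC window is chr4:176792923-176793172 (minus), the NRP2 window chr2:205682251-205682500 (plus) and the FLT1 window chr13:28495129-28495378 (minus). These RefSeq starts can differ from the starts of the GENCODE gene spans given in this text. The NRP2 window lies inside the NRP2 span, which begins at 205681990, and the FLT1 window overlaps the FLT1 span, which ends at 28495145.
VEGFC: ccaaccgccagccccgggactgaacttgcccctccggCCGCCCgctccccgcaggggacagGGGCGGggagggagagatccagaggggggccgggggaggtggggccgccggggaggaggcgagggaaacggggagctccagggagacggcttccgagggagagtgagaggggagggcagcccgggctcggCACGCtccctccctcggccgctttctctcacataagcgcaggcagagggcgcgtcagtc
NRP2: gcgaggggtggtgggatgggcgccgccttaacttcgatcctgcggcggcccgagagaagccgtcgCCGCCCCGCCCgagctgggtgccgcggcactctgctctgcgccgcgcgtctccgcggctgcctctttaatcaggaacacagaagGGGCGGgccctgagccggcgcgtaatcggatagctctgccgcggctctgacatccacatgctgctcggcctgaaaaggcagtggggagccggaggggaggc
FLT1: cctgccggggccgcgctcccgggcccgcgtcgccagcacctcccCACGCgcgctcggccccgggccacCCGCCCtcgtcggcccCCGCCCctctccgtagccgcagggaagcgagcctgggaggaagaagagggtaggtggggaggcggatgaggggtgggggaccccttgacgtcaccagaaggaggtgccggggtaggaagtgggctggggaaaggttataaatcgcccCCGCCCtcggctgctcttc
The VEGFC window holds 2 GC boxes, the NRP2 window 3 and the FLT1 window 3, with overlapping boxes counted separately. The hypoxia core has 1 match in VEGFC, 1 in FLT1 and 0 in NRP2. Of 35116 RefSeq promoter windows of the same length, 42.6% hold a GC box and 43.2% a hypoxia core, so both motifs are common. All 3 windows are rich in CpG, with 22 in VEGFC, 29 in NRP2 and 25 in FLT1, against a median of 11 over all windows. The windows of VEGFB, with 30 CpG and 1 hypoxia core, and of the PGF starts, with 18 and 35 CpG, were also above that median. A match is a run of letters and says nothing of binding. The VEGFB window holds 6 GC boxes, while VEGFA, NRP1 and FLT4 are named only.

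VEGFA (ENSG00000112715, chr6:43770184-43786487, plus strand), the main angiogenic ligand, had 54.9 and 54.4 CPM in KO clone 1 and 52.6 and 56.4 CPM in KO clone 5, against 54.2, 57.9 and 60.0 CPM in WT clone 1 and 57.8 and 59.5 CPM in WT clone 7. The groups overlapped, with a log2 difference of -0.09 (SE 0.05) and the same value, -0.09, for each KO clone. VEGFB (chr11:64234584-64239264, plus strand), a ligand of FLT1 linked to fatty acid uptake, averaged 37.4 ± 2.18 CPM in KO and 43.1 ± 7.63 CPM in WT (SD, n = 4 and 5), and its groups overlapped too (log2 difference -0.21, SE 0.12). The WT spread of VEGFB came from the replicate 1 libraries of both WT clones, at 34.3 and 35.6 CPM beside others at 47.1 to 51.0 CPM. Replicate 1 was also the lower library in both KO clones, at 36.7 CPM beside 38.7 CPM in KO clone 1 and 34.7 CPM beside 39.5 CPM in KO clone 5. Without WT clone 1 replicate 3 the log2 difference of VEGFB was -0.14.

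PGF (chr14:74941834-74955626, minus strand), the other FLT1 ligand, had 3.54 and 3.26 CPM in KO clone 1 and 4.65 and 4.31 CPM in KO clone 5, against 1.48, 3.68 and 2.25 CPM in WT clone 1 and 2.78 and 2.92 CPM in WT clone 7. A single WT library, WT clone 1 replicate 2, reached into the KO range. The log2 difference was 0.58 (SE 0.22), or 0.35 for KO clone 1 and 0.75 for KO clone 5, and 0.44 without WT clone 1 replicate 1. VEGFD, the remaining human VEGF ligand and like VEGFC an activator of FLT4, was too low to test, with 3, 5, 6 and 3 raw counts in KO libraries against 5, 5, 16, 11 and 11 in WT libraries.

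FLT4, the VEGFC receptor (ENSG00000037280, chr5:180601506-180649624, minus strand), was the member that was higher in KO without overlap. It had 51.2 and 46.9 CPM in KO clone 1 and 47.3 and 48.4 CPM in KO clone 5, against 22.0, 24.9 and 25.4 CPM in WT clone 1 and 17.7 and 20.5 CPM in WT clone 7. The KO libraries lay within a narrow band, and the highest WT library was far below the lowest KO library. The log2 difference was 1.13 (SE 0.10), a 2.19-fold higher level, with 1.19 for KO clone 1 and 1.16 for KO clone 5; 371 of the 17777 tested genes had a log2 difference at or above it. The ligand and its receptor thus differed in opposite directions in the same KO libraries.

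NRP2 (ENSG00000118257, chr2:205681990-205798133, plus strand), the neuropilin that pairs with FLT4 on lymphatic endothelium, was low throughout and lowest in KO. It had 0.871 and 0.837 CPM in KO clone 1 and 1.09 and 1.47 CPM in KO clone 5, from 15 to 29 raw counts a library, against 9.56, 7.03 and 6.82 CPM in WT clone 1 and 4.86 and 5.27 CPM in WT clone 7. The lowest WT library was well above the highest KO library. NRP2 was 6.33-fold lower in KO (log2 difference -2.66, SE 0.25), with -2.87 for KO clone 1 and -2.29 for KO clone 5, and 194 tested genes had a log2 difference at or below it. Against WT clone 7 alone the log2 difference was -2.26.

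FLT1, which binds VEGFA, VEGFB and PGF and also circulates as a soluble decoy (ENSG00000102755, chr13:28300346-28495145, minus strand), was lower in both KO clones but not to the same degree. It had 2.38 and 2.63 CPM in KO clone 1 and 4.84 and 4.91 CPM in KO clone 5, against 5.30, 7.27 and 7.65 CPM in WT clone 1 and 7.87 and 7.14 CPM in WT clone 7. KO clone 5 came close to the lowest WT library, whereas KO clone 1 lay far below it. Over both clones the log2 difference was -0.95 (SE 0.22); it was -1.50 (SE 0.17) for KO clone 1 and -0.55 (SE 0.16) for KO clone 5, so that leaving out KO clone 1 gives -0.54 and leaving out KO clone 5 gives -1.49. The counts do not separate the membrane-bound and soluble forms of FLT1.

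NRP1 (ENSG00000099250, chr10:33177492-33336262, minus strand), the neuropilin that binds VEGFA and enhances its signal through KDR, had 43.1 and 44.9 CPM in KO clone 1 and 61.8 and 58.0 CPM in KO clone 5, against 46.8, 49.5 and 49.8 CPM in WT clone 1 and 56.9 and 53.1 CPM in WT clone 7. Both KO clone 1 libraries were below every WT library and both KO clone 5 libraries above every WT library. The means were nearly equal, 51.9 ± 9.35 CPM in KO and 51.2 ± 3.88 CPM in WT (SD, n = 4 and 5), with a log2 difference of 0.02 (SE 0.11). It was -0.23 (SE 0.07) for KO clone 1 and 0.21 (SE 0.06) for KO clone 5, and without WT clone 1 replicate 1 the value over both was -0.01.

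The contrasts between clones of 1 genotype did not enter the choice of members, and they were tested for all 8 in both genotypes, 16 comparisons in all, with p-values adjusted over every tested gene and repeat. Between KO clones, 0.692% of all tested genes passed the threshold (0.467% higher in KO clone 5), and 8.78% had an unadjusted p below 0.05, where 2 of the 8 members (NRP1 and FLT1) stood. Between WT clones these shares were 0.613% and 16.7%. NRP1 was the 1 member of 8 that passed between the KO clones: it was 1.36-fold higher in KO clone 5 than in KO clone 1 (log2 difference 0.45, SE 0.08, edgeR adjusted p = 0.0322), and both KO clone 5 libraries exceeded both KO clone 1 libraries. The call was lost in 8 of 16 alternatives, each of which left out 1 library, while the log2 difference stayed between 0.39 and 0.49. The adjusted p was 0.329 and 0.242 without KO clone 1 replicates 1 and 2, and 0.276 and 0.133 without KO clone 5 replicates 1 and 2. It was 0.0627 and 0.0652 without WT clone 1 replicates 2 and 3, and 0.0552 and 0.0574 without WT clone 7 replicates 1 and 2, which enter through the pooled spread. FLT1 was higher in KO clone 5 by a log2 of 0.95 (SE 0.20), short of the threshold (adjusted p = 0.0830) with the spread pooled over all clones, and past it (adjusted p = 0.0114) when only the KO clones entered the fit, as also without WT clone 1 replicate 1 (adjusted p = 0.00675); over all alternatives its adjusted p ran from 0.00675 to 0.507. NRP2 differed by 0.58 (SE 0.29, adjusted p = 0.586) and PGF by 0.40 (SE 0.31, adjusted p = 0.756) between KO clones. FLT4, VEGFA and VEGFB had log2 differences between the KO clones of -0.03, 0.00 and -0.03, and VEGFC was at 0 counts in both.

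Between the WT clones, 0 of the 8 members passed by edgeR or by DESeq2, with 3 at an unadjusted p below 0.05 by edgeR and 2 by DESeq2. The 3 were FLT4, lower in WT clone 7 than in WT clone 1 by a log2 difference of -0.34 (SE 0.10, edgeR adjusted p = 0.0954), NRP2 at -0.62 (SE 0.19, adjusted p = 0.113), and NRP1 at 0.18 (SE 0.07, adjusted p = 0.197). FLT4 passed the threshold without WT clone 1 replicate 1 (adjusted p = 0.0251), and over all alternatives its adjusted p ran from 0.0251 to 0.458. The remaining members had log2 differences between the WT clones of -0.11 (VEGFB) to 0.20 (VEGFC). For FLT4 and NRP2 the WT clone difference was well under the difference between KO and WT; for NRP1 both were small.

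**Figure D2:**
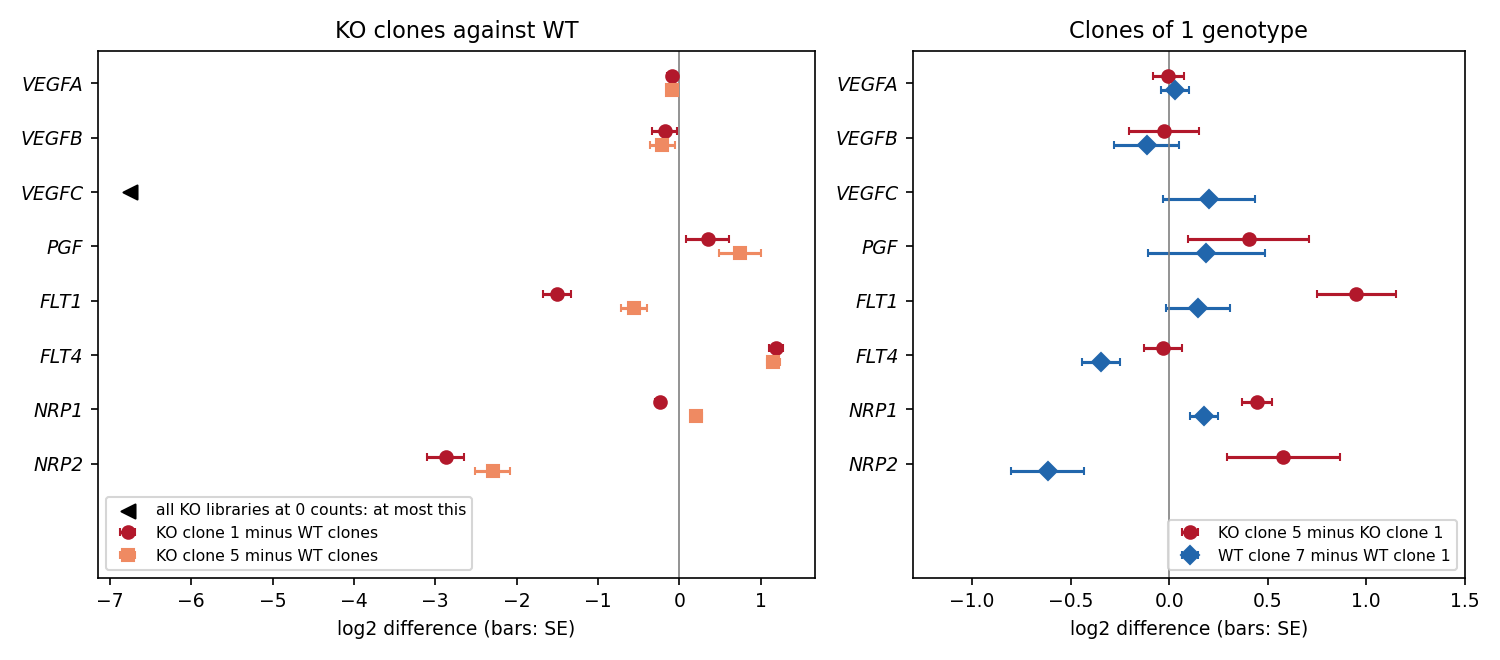
Log2 differences (horizontal axes; bars are SE) for the 8 genes, with each KO clone against the WT clones on the left and the contrasts between clones of 1 genotype on the right; the black triangle marks the upper bound of -6.75 for VEGFC, whose KO libraries are all at 0. The KO clones lie together for FLT4 (1.19 and 1.16), apart for FLT1 (-1.50 and -0.55) and NRP2 (-2.87 and -2.29), and on opposite sides of 0 for NRP1 (-0.23 and 0.21).

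Levels were compared between genes as CPM per kb of exon sequence (union of all annotated exons). In KO libraries the order was VEGFB (19.0 ± 1.11), FLT4 (5.47 ± 0.218), NRP1 (4.51 ± 0.812), VEGFA (3.78 ± 0.109), PGF (0.679 ± 0.112), FLT1 (0.293 ± 0.109), NRP2 (0.0768 ± 0.0210) and VEGFC at 0 (SD, n = 4). In WT libraries it was VEGFB (21.9 ± 3.87), NRP1 (4.44 ± 0.337), VEGFA (4.01 ± 0.158), FLT4 (range 2.01 to 2.87), VEGFC (1.35 ± 0.238), FLT1 (0.560 ± 0.0808), NRP2 (0.483 ± 0.133) and PGF (0.451 ± 0.141) (SD, n = 5). Neighbouring ranges overlapped for FLT4, NRP1 and VEGFA in KO, where NRP1 spans 3.74 to 5.36 CPM per kb, and in WT for NRP1 and VEGFA and for FLT1, NRP2 and PGF, so those orders are not resolved. By mean on this length, FLT4 thus stood next after VEGFB in KO but after NRP1 and VEGFA in WT. With the longest transcript as the length, the mean of NRP1 stood above that of FLT4 in KO as well, though not in KO clone 1. The order of VEGFA and VEGFB depends on the length used: with the median transcript length in place of the exon union, chosen after the data were seen, VEGFA made up 60.5% of ligand transcripts in KO and 58.1% in WT.

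As shares of the 4 ligands per kb of exon union, VEGFA held 16.1 ± 0.442% in KO and 14.7 ± 1.83% in WT, VEGFB 81.0 ± 0.879% in KO and 78.8 ± 2.48% in WT, and PGF 2.91 ± 0.554% in KO and 1.62 ± 0.447% in WT (SD, n = 4 and 5). VEGFC held 0% in KO and 4.93 ± 0.954% in WT. Among the 4 receptors, FLT4 held 53.2 ± 5.30% in KO and 31.3 ± 3.90% in WT, NRP1 43.3 ± 4.41% in KO and 55.7 ± 4.55% in WT, FLT1 2.78 ± 0.830% in KO and 7.00 ± 0.894% in WT, and NRP2 0.736 ± 0.154% in KO and 6.06 ± 1.79% in WT. On this length FLT4 had the larger mean share in KO and NRP1 in WT, but in KO clone 5 replicate 1 the shares of FLT4 and NRP1 were 47.8% and 48.0%. With the longest transcript as the length, NRP1 had the larger mean share in both genotypes, with FLT4 at 47.0% and NRP1 at 49.3% in KO and FLT4 at 26.2% and NRP1 at 60.1% in WT. In KO that came from KO clone 5, as FLT4 led in KO clone 1 replicates 1 (53.0% against 44.2%) and 2 (49.7% against 47.2%). With the median transcript length FLT4 had the larger mean share in KO, 56.5% against 38.1% for NRP1. The ratio of FLT4 to FLT1 per kb was 13.9 to 30.5 across KO libraries and 3.21 to 5.90 across WT libraries, and that of NRP1 to NRP2 was 47.5 to 68.3 across KO libraries and 5.90 to 14.1 across WT libraries. The size of the NRP1 to NRP2 ratio depends on the length: with the median transcript length it was 16.8 to 24.2 across KO libraries and 2.09 to 5.00 across WT libraries, and NRP2 held 1.83% of the receptor total in KO and 14.1% in WT.

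**Figure D3:**
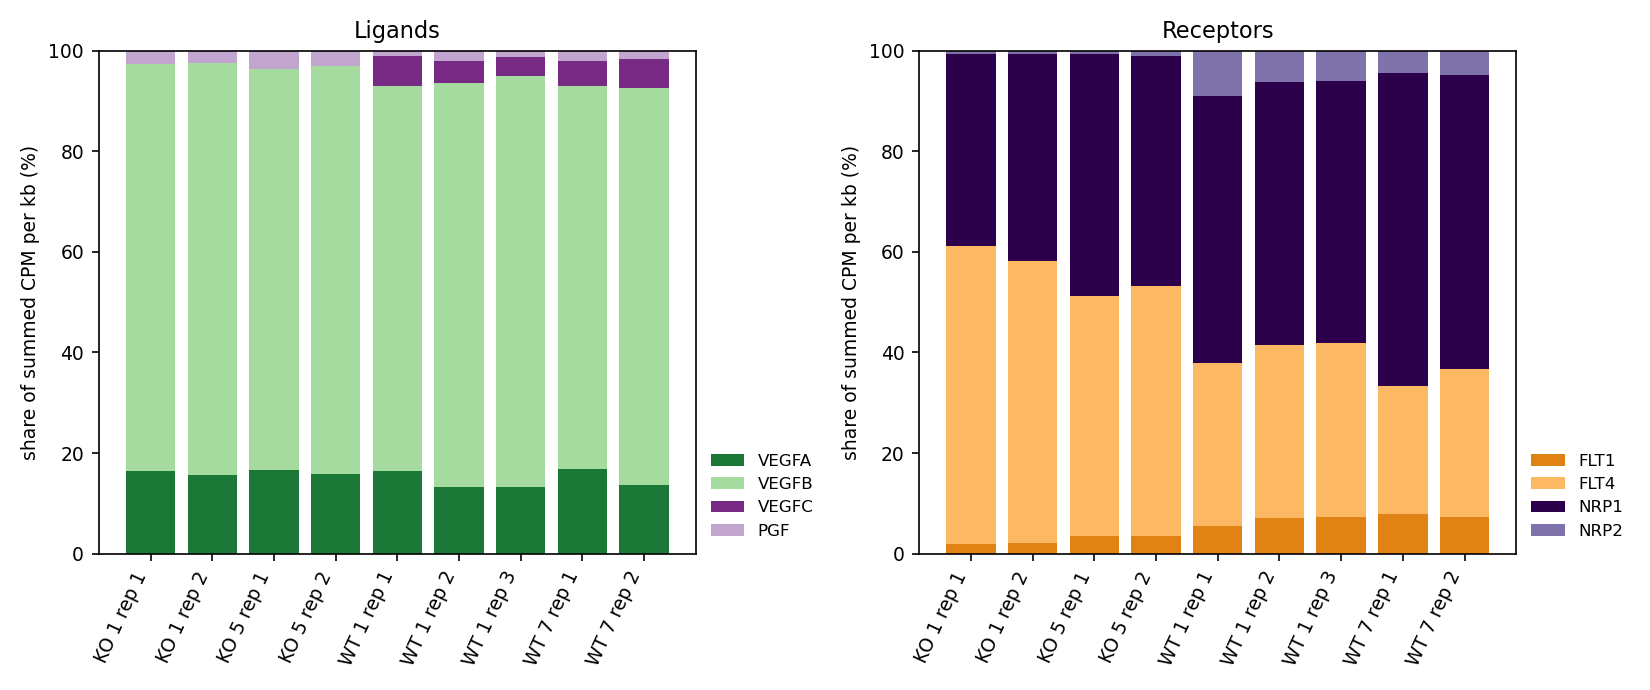
Shares (%, vertical axes) of summed CPM per kb of exon union in each library, for the ligands on the left and the receptors on the right, with KO libraries to the left of WT libraries; each bar is a library and each colour a gene. The VEGFC band, 4.93% on average in WT, is missing in KO, and FLT4 takes 53.2% of the receptor total in KO against 31.3% in WT.

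The members differ in gene architecture, which the choice of members did not use. VEGFC, NRP2, NRP1 and FLT1 span 109, 116, 159 and 195 kb, against a median of 23.6 kb over 17534 tested genes with a gene model, and the other members span 4.68 kb (VEGFB) to 48.1 kb (FLT4). The pentamer AUCUU, the motif best known for binding by MATR3, was counted as ATCTT on the sense strand of each gene span, introns included. Its density was 1.58 per kb in VEGFC, 1.51 in NRP1, 1.48 in FLT1 and 1.33 in NRP2, and 1.28 in VEGFB, 0.797 in VEGFA, 0.374 in FLT4 and 0.218 in PGF, against a median of 1.224 per kb. VEGFC, NRP1, FLT1, NRP2 and VEGFB were thus above the median and VEGFA, FLT4 and PGF below it. Base composition differed too, as the gene span of VEGFC is 35.6% GC and that of FLT4 60.2% GC (median 45.6%). The span of VEGFB, with 1.28 motifs per kb, is 60.0% GC. Whether density follows base composition was not tested. VEGFA, VEGFC, NRP1 and NRP2 each overlap an annotated RNA gene on the opposite strand, and since no source used here gives the strand setting of the counting, reads of these partners cannot be told apart from those of the members.

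Among the 3 nearest tested protein-coding genes on each side of every member, 9 of 48 passed the threshold between KO and WT, 1 higher and 8 lower, with a median log2 difference of -0.04, against 23.2% of all tested genes. Beside VEGFC, the nearest tested gene SPCS3, a signal peptidase subunit 351 kb away, averaged 127 CPM in KO and 140 CPM in WT and did not pass, while the DNA glycosylase gene NEIL3 was lower (log2 difference -0.25, SE 0.07, edgeR adjusted p = 0.0156), as was the teneurin gene TENM3, 5351 kb away (38.4 CPM in KO and 76.8 CPM in WT, adjusted p = 2.31e-06). Beside NRP2, PARD3B, a cell polarity gene 61.8 kb away, was lower (-0.82, SE 0.15, adjusted p = 0.00211), with RAPH1 (-0.44) and EEF1B2 (-0.19) also lower. Beside FLT4, MAPK9 (-0.51, SE 0.05, adjusted p = 3.57e-05), a stress-activated kinase, and GFPT2 (-0.41), of the hexosamine pathway, were lower, the direction opposite to that of FLT4. DLST was lower near PGF (-0.21), and CDX2, a homeobox gene near FLT1, was higher (0.49), opposite to FLT1. The calls of NEIL3, DLST and EEF1B2 were lost when some single libraries were left out: NEIL3 without either KO clone 1 library (adjusted p = 0.0547 and 0.0542), EEF1B2 without KO clone 1 replicate 1, KO clone 5 replicate 1 or WT clone 7 replicate 1 (0.0515 to 0.0706), and DLST without either KO clone 5 library, WT clone 1 replicate 3 or either WT clone 7 library (0.0538 to 0.0794). With each clone's counts summed, these 3 and PARD3B, GFPT2 and CDX2 lost their calls (adjusted p = 0.0663 to 0.250), which left TENM3, RAPH1 and MAPK9.

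The genes around the family were taken from 6 lists of ligand processing, neuropilin partners, receptor signalling, oxygen sensing, RNA-binding regulators and other angiogenic factors. Of 115 tested genes, 43 passed between KO and WT, 14 higher and 29 lower, which is 37.4%, with 23.2% for all genes. The lists were drawn up with results of these data known and the 43 include MATR3 itself. Nothing is therefore read from that share or from the counts per list below. The median log2 difference was -0.07, against -0.0016 over all tested genes.

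Proteases that act on VEGF ligands or their matrix were among the genes lower in KO. In the processing list 4 of 10 tested genes passed, 4 lower and 0 higher, against 23.2% of all tested genes, with a median log2 difference of -0.55. At an unadjusted p below 0.05, where 35.8% of all tested genes stood, 5 were lower and 0 higher, and so by DESeq2. The proprotein convertase PCSK5, which can cleave the VEGFC precursor, averaged 1.50 ± 0.388 CPM in KO and 6.55 ± 0.697 CPM in WT (log2 difference -2.14, SE 0.17, edgeR adjusted p = 3.38e-06). ADAMTS3, the protease that activates pro-VEGFC together with CCBE1, averaged 8.11 ± 0.543 CPM in KO and 14.3 ± 1.68 CPM in WT (-0.82, SE 0.10, adjusted p = 0.000119). The convertase PCSK6 (-1.33) and the matrix protease ADAMTS1 (-1.19) were lower as well. The convertases FURIN and PCSK7, named after their values were seen, stood at higher levels and did not pass. FURIN averaged 59.9 CPM in KO and 57.6 CPM in WT (0.05, SE 0.09, adjusted p = 0.747). PCSK7 averaged 69.7 CPM in KO and 64.6 CPM in WT (0.11, SE 0.07, adjusted p = 0.280). CCBE1 was not analysed here.

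Among neuropilin ligands and co-receptors, 7 of 17 passed (41.2%, against 23.2% of all tested genes), 3 higher and 4 lower, with a median of -0.24. SEMA3A, the class 3 semaphorin that signals mainly through NRP1, had 1, 0, 4 and 0 raw counts in KO libraries and 562 counts over the WT libraries; its rate was 87.5 times higher in WT than in KO, with a 95% exact interval of 37.3 to 270.4 that covers counting error only. In CPM it lay between 0 and 0.190 in KO and between 3.60 and 5.93 in WT. Like VEGFC, SEMA3A passed the low-count filter through its WT libraries alone, so it had to differ, and its pass carries no weight. SEMA3D, another class 3 semaphorin, averaged 1.23 ± 0.549 CPM in KO and 6.88 ± 0.765 CPM in WT (-2.45, SE 0.25, edgeR adjusted p = 2.1e-05). SEMA3F (0.36, SE 0.11, adjusted p = 0.0377) and SEMA3B (0.55, SE 0.18, adjusted p = 0.0423), of the same class and named after their values were seen, were higher. The calls of SEMA3F and SEMA3B were not followed over the alternatives. The integrin subunit ITGB8 was lower (-1.60, SE 0.15, adjusted p = 8.98e-06), as was the semaphorin co-receptor PLXNA1 (-0.28, SE 0.06, adjusted p = 0.00585). The PLXNA1 call was lost without KO clone 1 (adjusted p = 0.0809) and with each clone's counts summed (0.0820). MET, a receptor tyrosine kinase that can associate with neuropilins, was named after its values were seen. Its mean was higher in KO than in WT (0.82, SE 0.21, adjusted p = 0.0142), but the ranges overlapped. MET had 59.2 to 127 CPM in KO libraries and 45.9 to 61.9 CPM in WT libraries. It also differed between the KO clones (adjusted p = 0.00111). The MET calls were not followed over the alternatives either.

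Of 33 tested receptor partners and signalling genes, 8 passed, 3 higher and 5 lower, with a median of 0.02. That is 24.2%, close to the 23.2% of all tested genes. PTPRJ, a receptor phosphatase that acts on VEGF receptors, averaged 103 ± 3.46 CPM in KO and 48.0 ± 1.91 CPM in WT (1.10, SE 0.05, edgeR adjusted p = 6.47e-08). The Src family kinase FYN was higher (1.25, SE 0.09, adjusted p = 1.44e-06). PIK3R1, a regulatory subunit of PI3K, was lower (-0.62, SE 0.10, adjusted p = 0.000981), and so was the kinase MAPKAPK2 (-0.26, SE 0.06, adjusted p = 0.0106). The MAPKAPK2 call was lost without KO clone 5 (adjusted p = 0.113), without WT clone 1 (0.0794) and with each clone's counts summed (0.123).

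In the oxygen-sensing list, which acts upstream of VEGFA, 6 of 14 passed (42.9%, against 23.2% of all tested genes), 3 higher and 3 lower. Its median was -0.07, and VEGFA itself stayed within overlapping ranges. CITED2, which restrains HIF-dependent transcription, averaged 37.1 ± 4.02 CPM in KO and 13.7 ± 2.09 CPM in WT (1.43, SE 0.11, edgeR adjusted p = 2.68e-06). EPAS1, the HIF-2 alpha subunit, was higher at a low level (1.37 ± 0.406 CPM in KO and 0.438 ± 0.0806 CPM in WT; 1.59, SE 0.27, adjusted p = 0.00109). With 0.335 to 0.561 CPM in WT libraries, EPAS1 passed the low-count filter mainly through its KO libraries, which favours a higher KO value. The HIF prolyl hydroxylase EGLN3 was lower (-1.04, SE 0.17, adjusted p = 0.000752), as was ARNT2, a HIF dimerisation partner (-0.69, SE 0.10, adjusted p = 0.000404). HIF1A and EGLN1, named after their values were seen, passed as well. HIF1A was higher (0.35, SE 0.07, adjusted p = 0.00270) and EGLN1 lower (-0.30, SE 0.07, adjusted p = 0.0118). The calls of HIF1A and EGLN1 were not followed over the alternatives.

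Of the 19 RNA-binding regulators tested, MATR3 included, 6 passed (31.6%, against 23.2% of all tested genes), 2 higher and 4 lower, with a median of -0.06. QKI was higher (0.38, SE 0.06, edgeR adjusted p = 0.000619), whereas ZFP36L2, of the AU-rich element decay factors, was lower (-0.40, SE 0.06, adjusted p = 0.000642), and so was the splicing regulator CELF2 (-1.24, SE 0.26, adjusted p = 0.00469), whose KO libraries ran from 5.78 to 14.9 CPM against 17.5 to 27.2 CPM in WT and which also differed between the KO clones (adjusted p = 0.0104). With each clone's counts summed the CELF2 call was lost (adjusted p = 0.0823).

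Among other angiogenic ligands, receptors and inhibitors, 12 of 22 passed (54.5%, against 23.2% of all tested genes), 3 higher and 9 lower, with a median of -0.32. The thrombospondins, inhibitors of angiogenesis, were among the lower genes: THBS2 averaged 5.91 ± 1.70 CPM in KO and 52.5 ± 7.05 CPM in WT (-3.16, SE 0.17, edgeR adjusted p = 1.66e-07), and THBS1 0.437 ± 0.354 CPM in KO and 7.92 ± 2.71 CPM in WT (-4.15, SE 0.45, adjusted p = 3.78e-05). With 0.109 to 0.871 CPM in KO libraries, THBS1 would not have passed the low-count filter without its WT libraries. That favours a lower KO value, so its pass carries no weight. The inhibitor SERPINF1 was higher instead (1.36, SE 0.20, adjusted p = 0.000404). COL18A1 and PDGFB, both named after their values were seen, were the others of the 3 higher genes. COL18A1 averaged 109 CPM in KO and 61.4 CPM in WT (0.82, SE 0.13, adjusted p = 0.00056). The COL18A1 call was not followed over the alternatives. PDGFB had 0 to 0.325 CPM in WT libraries and passed the low-count filter through its KO libraries alone, so it had to differ. EFNB2, the arterial ephrin that takes part in VEGF receptor internalisation, averaged 2.41 ± 1.13 CPM in KO and 13.2 ± 1.86 CPM in WT (-2.43, SE 0.25, adjusted p = 2.39e-05). In this list THBS2, EFNB2, PDGFRA and ANGPT1 also passed between the KO clones, the last pair named after their values were seen.

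**Figure D4:**
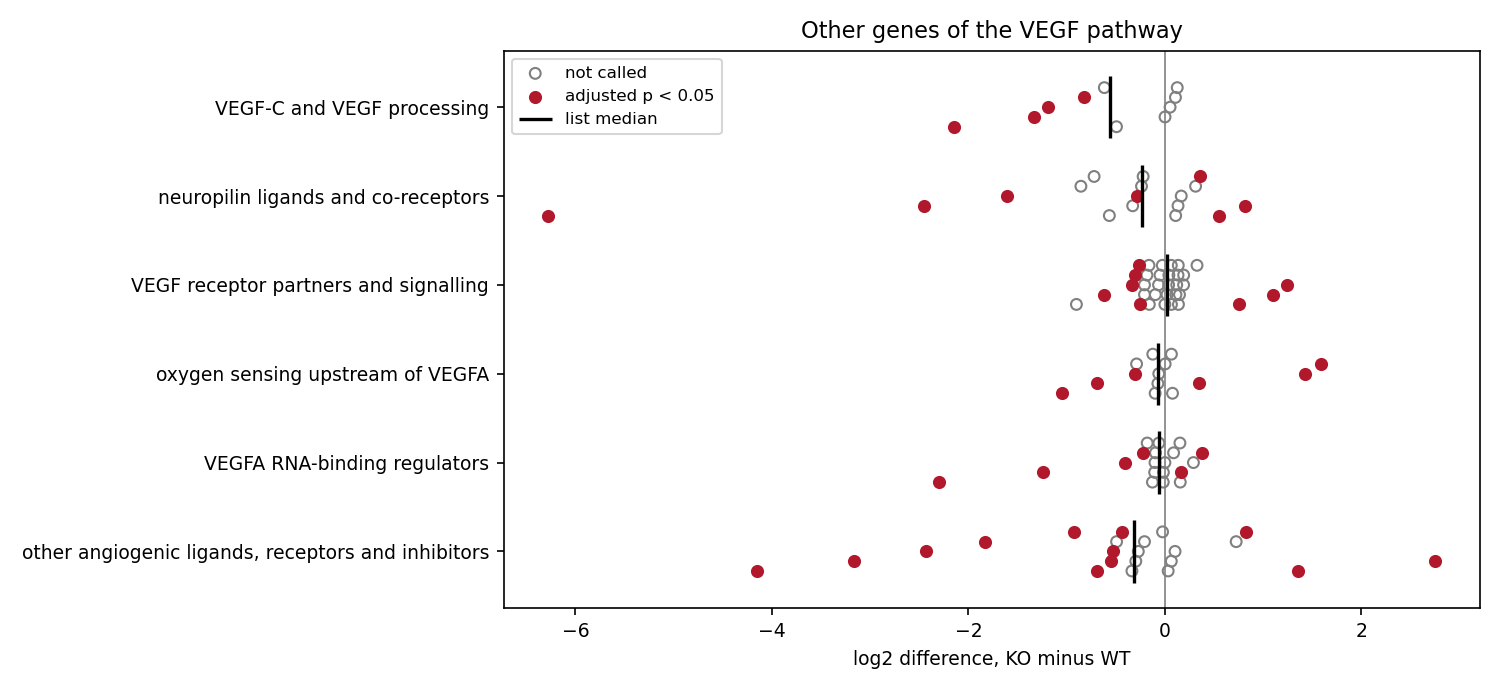
Log2 differences between KO and WT (horizontal axis) of the tested genes of the 6 lists (rows), with genes at an adjusted p below 0.05 filled, the rest open, and the list median as a black line. The processing list has its median at -0.55 with 4 filled points, all below 0, and the point farthest to the left is SEMA3A, fitted from 5 KO counts.

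The genes most like each member were those with the highest Pearson correlation of log2(CPM + 0.5) over the 9 libraries, which share genotype and clone structure. VEGFC was followed most closely by SULF1 (r = 0.997), ISPD and ARAP2, and NRP2 by NPNT (r = 0.997), PCDHGC3 and PCDHGB5, the last pair being protocadherin gamma genes that share exons, so that their counts are uncertain. Genes close to FLT4 included FCHO1 (r = 0.993) and MYH7B (r = 0.992), and FLT1 was followed by PAX2 (r = 0.985), FRMD4A and YY1. For NRP1 they were EPB41L4B (r = 0.944), OSBPL10 and ZNF697, for VEGFA POPDC2 (r = 0.967), GPC1 and SLC27A4, for VEGFB LINGO1 (r = 0.976), LOC652276 and KIAA0319L, and for PGF ARHGAP5-AS1 (r = 0.967), LINC00461 and HDAC11.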

How the data were processed

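RNA of 9 HAP1 libraries was sequenced after ribosomal RNA depletion, per the labels' protocols. Whole-number counts per gene and repeat subfamily are as deposited by the authors, with hg38, STAR 2.5.2a and DESeq2 1.22.2 named in the submitters' processing notes; neither the strand setting nor the use of molecular identifiers is stated there or in the labels. The authors' deposited DESeq2 comparison table supplied log2 fold changes for members. Its mean normalized counts (a signal: counts divided by a size factor, made by the authors) were not used for results. The p-values and the score column (a transform of the p-value) that the authors deposited with it were not used either.

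KO and WT were compared with edgeR 4.0.16 (R 4.3.3): TMM scaling, filterByExpr with a minimum count of 10, quasi-likelihood test, Benjamini-Hochberg adjustment over 17777 genes and 1052 repeats, threshold 0.05. The KO to WT model had a term for genotype only, so libraries of 1 clone counted as separate samples. Each edgeR SE is the size of the log2 difference divided by the square root of the F statistic of its fit. The SEs of KO to WT differences thus also treat libraries of 1 clone as separate samples. Clone contrasts used a model with a term per clone over all libraries, so the spread is pooled. DESeq2 1.42.0 was an alternative. CPM is each count divided by the TMM-scaled library total, times 1000000. Locations and lengths come from GENCODE 44, promoter sequences from RefSeq. The code was tested on simulated data.

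The members and gene lists were chosen with earlier results of these data known. Genes named beyond the members were, per list, the 4 called genes with the smallest p, the called neighbours, and the 3 genes most like each member, of which 1 is not reported here. SPCS3 was named after its values were seen. At these depths 1 count is 0.0288 to 0.0621 CPM, depending on the library.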

Additional observations from a re-analysis of the deposited data

Results flagged for a closer look

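FLT1 in WT clone 1 replicate 1 stood at 5.30 CPM, below the other WT libraries at 7.14 to 7.87 CPM, and its gap to the next library relative to the WT range (0.715) exceeded Dixon's 95% critical value for 5 samples (0.71). Chance marks about 1 in 20 groups in this way. The screen covered every analysed member in both genotypes, apart from VEGFC in KO, and this was its only flag. A single flag of this kind can therefore arise by chance. Without that library the FLT1 log2 difference between KO and WT is -1.04, against -0.95 with it.

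NRP1 differed between the KO clones by a log2 of 0.45 (KO clone 5 minus KO clone 1, edgeR adjusted p = 0.0322), so that the KO clones lie on opposite sides of the WT libraries. Both libraries of each KO clone show it, and the call rests on 2 libraries a clone.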

How the results depend on the processing

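The 4123 genes called between KO and WT numbered 1639 with each clone's counts summed, 2338 without KO clone 1 and 2614 without KO clone 5, and 3206 to 4114 with 1 library left out. With clones summed, 24 pathway genes passed (8 higher and 16 lower, against 43, 14 and 29), and 3 neighbours (against 9). For the KO clones, 123 calls became 338 with only those clones in the fit and 18 to 424 with 1 library left out. For the WT clones, 109 calls became 0 with only those clones in the fit, 468 by DESeq2 and 0 to 764 with 1 library left out. VEGFA's share of ligands in KO was 17.1% with the longest transcript and 60.5% with the median transcript length, and in WT 58.1% with the median transcript length, which also put the VEGFC share in WT at 2.43%; this length was chosen after seeing the data. Among members, the KO to WT log2 difference kept its sign in every alternative except for NRP1 (-0.22 to 0.22); these carry no test. NRP1 between KO clones ran from an adjusted p of 0.00655 to 0.329. Of 818 alternatives for 39 named other genes, 775 kept their call and direction and 43 in 13 genes lost the call. Same-numbered replicates of different clones correlated at 0.0860 to 0.573 (12 comparisons, mirrored within clones of 2), and 8 of 9 libraries correlated best with their own number, a hint from the data and not the design; other pairs ran from -0.573 to 0.104. With the replicate number as a block, 3734 genes were called between KO and WT, 160 between KO clones and 431 between WT clones, 38 pathway genes (14 higher, 24 lower) and 8 neighbours passed, the DLST call was lost (adjusted p = 0.0628), the VEGFB log2 difference was -0.13 against -0.21, and the NRP1 KO clone difference had an adjusted p of 0.0401. Depth limits the low members: KO libraries held 15 to 29 counts of NRP2, and the VEGFC bound runs from 66.6 to 111 with 1 library left out. The cause of these changes was not tested.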

Other observations

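In the authors' deposited table the log2 fold changes, KO over WT, are -8.71 for VEGFC, -2.67 for NRP2, -0.95 for FLT1, 1.13 for FLT4, 0.58 for PGF, -0.21 for VEGFB, -0.09 for VEGFA and 0.01 for NRP1. The VEGFC value in the authors' deposited table is a fitted estimate against libraries at 0 counts and is no bound. VEGFD, which was not tested here, has -1.12 in the authors' deposited table with a standard error of 0.587.

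Outside the VEGF genes, 3 of the 6 haematopoietic markers tested passed between KO and WT (edgeR), where 23.2% of all tested genes did. KIT, the stem cell factor receptor and like FLT4 a receptor tyrosine kinase, averaged 1.15 ± 0.519 CPM in KO and 8.48 ± 0.470 CPM in WT (SD, n = 4 and 5; log2 difference -2.92, SE 0.24, adjusted p = 3.39e-06). MYB, a transcription factor of blood progenitors, had 33.2 to 57.6 CPM across KO libraries and 16.1 to 18.3 CPM across WT libraries (1.40, SE 0.17, adjusted p = 8.56e-05), and it also passed between the KO clones (adjusted p = 0.0014). RUNX1, a transcription factor of blood formation, averaged 9.84 ± 0.925 CPM in KO and 16.4 ± 3.90 CPM in WT (-0.73, SE 0.15, adjusted p = 0.00435). The RUNX1 call was lost without KO clone 1 (adjusted p = 0.0726) and with each clone's counts summed (0.0519).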
